A study of Mus musculus with 84 samples.

Results

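The flavin-containing monooxygenases (FMOs) of mouse liver were followed in the livers of 84 male B6C3F1 mice after dietary exposure to organophosphate pesticides (OPPs). The members were the genes Fmo1, Fmo2, Fmo4 and Fmo5, found by matching the Ensembl identifiers of the deposited count table to these gene symbols, and they were 4 of the 17695 genes in that table. They were chosen by family name, and the family was selected on the measured level of Fmo2 at the highest parathion dose, so that value is given as a description with no p-value. The mice were 8 weeks old when exposure began and ate an AIN-93G diet for 7 days. The control group ate it with no OPP (0 ppm). The dosed groups received fenthion (FT) at 2.5, 5, 10 or 20 ppm, methidathion (MT) at 10, 25, 50 or 100 ppm, or parathion (PT) at 20, 40 or 80 ppm. The paper states that body weight and relative liver weight were reduced by PT at 40 and 80 ppm and by no other OPP. A higher PT dose was left out by the authors because of illness and deaths. With 0.15 mg/Kg-bw/day estimated for each ppm, the highest intakes were 3 mg/Kg-bw/day for FT, 15 for MT and 12 for PT. Each of the 12 groups held 7 mice, and each mouse gave 1 library of frozen liver. Portions of several lobes had been frozen, and which lobe entered a library is not given in the sources used here. The mice were spread over experimental blocks 1, 3 and 4, with 2, 3 and 2 mice of every group. A contract laboratory, Expression Analysis Genomic Services (EA), isolated the RNA of 77 mice, and the U.S. EPA that of the other 7, namely 2 control mice, 2 on FT 20 ppm, 2 on MT 100 ppm and 1 on MT 10 ppm. Mice are numbered 1 to 7 within a group as names only.

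FMOs are enzymes of the endoplasmic reticulum that hold FAD, take electrons from NADPH and insert an oxygen atom into the soft nitrogen or sulfur atoms of foreign compounds. Fenthion carries a thioether, which FMOs and cytochromes P450 can oxidise to a sulfoxide. Methidathion carries sulfur in its ring, while parathion has no thioether, and all of these OPPs are phosphorothioates or phosphorodithioates that cytochromes P450 activate by replacing sulfur with oxygen. Fmo1 is a broad-substrate form of mouse liver and kidney. Fmo2 is the main form of lung and is a minor transcript in liver. Fmo4 is a low-abundance form with few known substrates. Fmo5 is a liver form that acts as a Baeyer-Villiger monooxygenase and takes few of the classical substrates.

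The assay was TempO-Seq, in which pairs of detector oligos are joined where they sit side by side on a transcript, then amplified and counted. Total counts per mouse ranged from 6950381 to 15300589, and values are given below as CPM, the count scaled to the total of the mouse. Because detector oligos differ between genes, CPM was compared between mice for 1 gene and not between genes. Over the 84 mice the median count was 1048.5 for Fmo1, 597.5 for Fmo5, 14 for Fmo2 and 13 for Fmo4, so the latter pair were measured with far fewer counts. No mouse had a count of 0 for any member. In the GRCm39 assembly (mm39), Fmo1 (ENSMUSG00000040181) lies on the minus strand of chromosome 1 from 162655471 to 162694185. Fmo2 (ENSMUSG00000040170) lies on the same strand from 162701873 to 162726295, and Fmo4 (ENSMUSG00000026692) from 162620757 to 162641541. Fmo5 (ENSMUSG00000028088) lies apart, on the plus strand of chromosome 3 from 97531564 to 97562598. Estimated counts of Fmo1 were not whole numbers in 78 mice and those of Fmo5 in 77 mice, with a largest distance from a whole number of 0.23 and 0.11 counts. For Fmo2 and Fmo4 every count was whole.

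The RefSeq promoter table held 4 entries for 3 of the 4 members, 2 of them alternative starts of Fmo2. The 250 bases before each start are given in the GRCm38.p6 assembly, an older build than that of the gene coordinates above. They are shown because Fmo2 and Fmo5 were both far above control in the same mice of the highest PT dose, while Fmo4 did not pass the test there. Capitals mark matches, on either strand, to the letters of 6 motifs: the TATA box (TATAAA), the nuclear receptor half-site (AGGTCA), the forkhead motif (GTAAACA), the STAT motif (TTCNNNGAA), the core of the aryl hydrocarbon receptor element (GCGTG) and the antioxidant response element (TGACNNNGC).
Fmo2 start 1, chr1:162898494-162898743, minus strand: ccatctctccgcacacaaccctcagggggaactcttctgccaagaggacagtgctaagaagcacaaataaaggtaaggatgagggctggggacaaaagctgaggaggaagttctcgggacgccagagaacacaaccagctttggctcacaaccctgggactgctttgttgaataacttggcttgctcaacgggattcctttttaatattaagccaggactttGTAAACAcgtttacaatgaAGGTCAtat
Fmo2 start 2, chr1:162898759-162899008, minus strand: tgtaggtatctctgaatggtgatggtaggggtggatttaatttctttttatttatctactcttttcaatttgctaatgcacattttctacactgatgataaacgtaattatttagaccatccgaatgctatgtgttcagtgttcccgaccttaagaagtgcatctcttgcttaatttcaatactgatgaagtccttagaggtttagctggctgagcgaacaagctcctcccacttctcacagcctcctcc
Fmo4, chr1:162812550-162812799, minus strand: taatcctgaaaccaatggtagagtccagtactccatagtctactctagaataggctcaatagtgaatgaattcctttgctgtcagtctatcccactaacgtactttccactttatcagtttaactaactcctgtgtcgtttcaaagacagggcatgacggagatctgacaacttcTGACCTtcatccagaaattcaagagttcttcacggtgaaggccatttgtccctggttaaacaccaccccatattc
Fmo5, chr3:97628769-97629018, plus strand: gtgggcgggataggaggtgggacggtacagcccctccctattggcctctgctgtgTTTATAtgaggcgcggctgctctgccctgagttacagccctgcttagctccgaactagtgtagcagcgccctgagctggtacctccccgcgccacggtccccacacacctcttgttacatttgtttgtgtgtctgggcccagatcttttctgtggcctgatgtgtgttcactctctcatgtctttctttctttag

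The first start of Fmo2 held a forkhead match beginning at base -28 from the start and a nuclear receptor half-site beginning at base -9. A forkhead match was present in 3.17% and a half-site in 14.02% of the 32851 promoter entries over the same 250 bases. The second start of Fmo2 held none of the 6 motifs. The promoter of Fmo4 held 1 half-site on the opposite strand at base -75, and that of Fmo5 held a TATA box on the opposite strand at base -195, a motif present in 12.4% of entries. The STAT, aryl hydrocarbon receptor and antioxidant motifs, found in 7.02%, 28.2% and 10.2% of entries, had no match in these windows. The matches describe letters and are not evidence of binding.

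Hepatocyte markers (6 of 6) were present in every group, with a summed level of 16977 to 40976 CPM over all mice. At PT 80 ppm the 7 pericentral hepatocyte markers summed to 16650 to 27058 CPM, above the 7934 to 15880 CPM of the control mice. Most of this sum was Cyp2e1, and the other 6 markers summed to 581 to 1375 CPM at PT 80 ppm and 885 to 1421 CPM in control mice, which overlap. The 5 cholangiocyte markers summed to 12.8 to 61.3 CPM against 56.9 to 130 CPM in control mice, but 4 of them had a median count at or under the limit of 8, and Spp1 alone held 11.4 to 55.6 CPM against 55.9 to 130 CPM. The other 4 were not lower as a sum, with 0.321 to 9.05 CPM at PT 80 ppm and 0.470 to 1.31 CPM in control mice. The 6 Kupffer cell markers summed to 10.2 to 87.5 CPM at PT 80 ppm and 66.8 to 141 CPM in control mice, of which Cd5l held most. The 4 leukocyte markers in the table summed to 9.29 to 36.4 CPM at PT 80 ppm and 21.4 to 49.8 CPM in control mice. Endothelial markers summed to 109 to 150 CPM at PT 80 ppm and 104 to 140 CPM in control mice. Stellate cell markers summed to 87.8 to 133 CPM against 81.8 to 119 CPM in control mice. Periportal hepatocyte markers summed to 2448 to 7032 CPM against 2168 to 4229 CPM in control mice. Of 5 lung epithelial markers, 2 were in the table, and they summed to at most 0.336 CPM at PT 80 ppm and 0.235 CPM in control mice. The part of these markers in the results below was not tested. In bulk liver, fewer cells of a type and less RNA per cell cannot be told apart.

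PT at 80 ppm was the only group in which any member passed the test. Fmo1 mRNA was 2.84-fold higher than control there. Fmo5 was 2.08-fold higher on average, but this rested on both mice of block 1, and without them its estimate lay below control. Fmo2 had the largest difference of the 4 members and was above every control mouse in 7 of 7 mice. Fmo4 did not pass the test. At every dose of FT and MT, and at PT 20 and 40 ppm, no member passed the test.

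**Figure D1:**
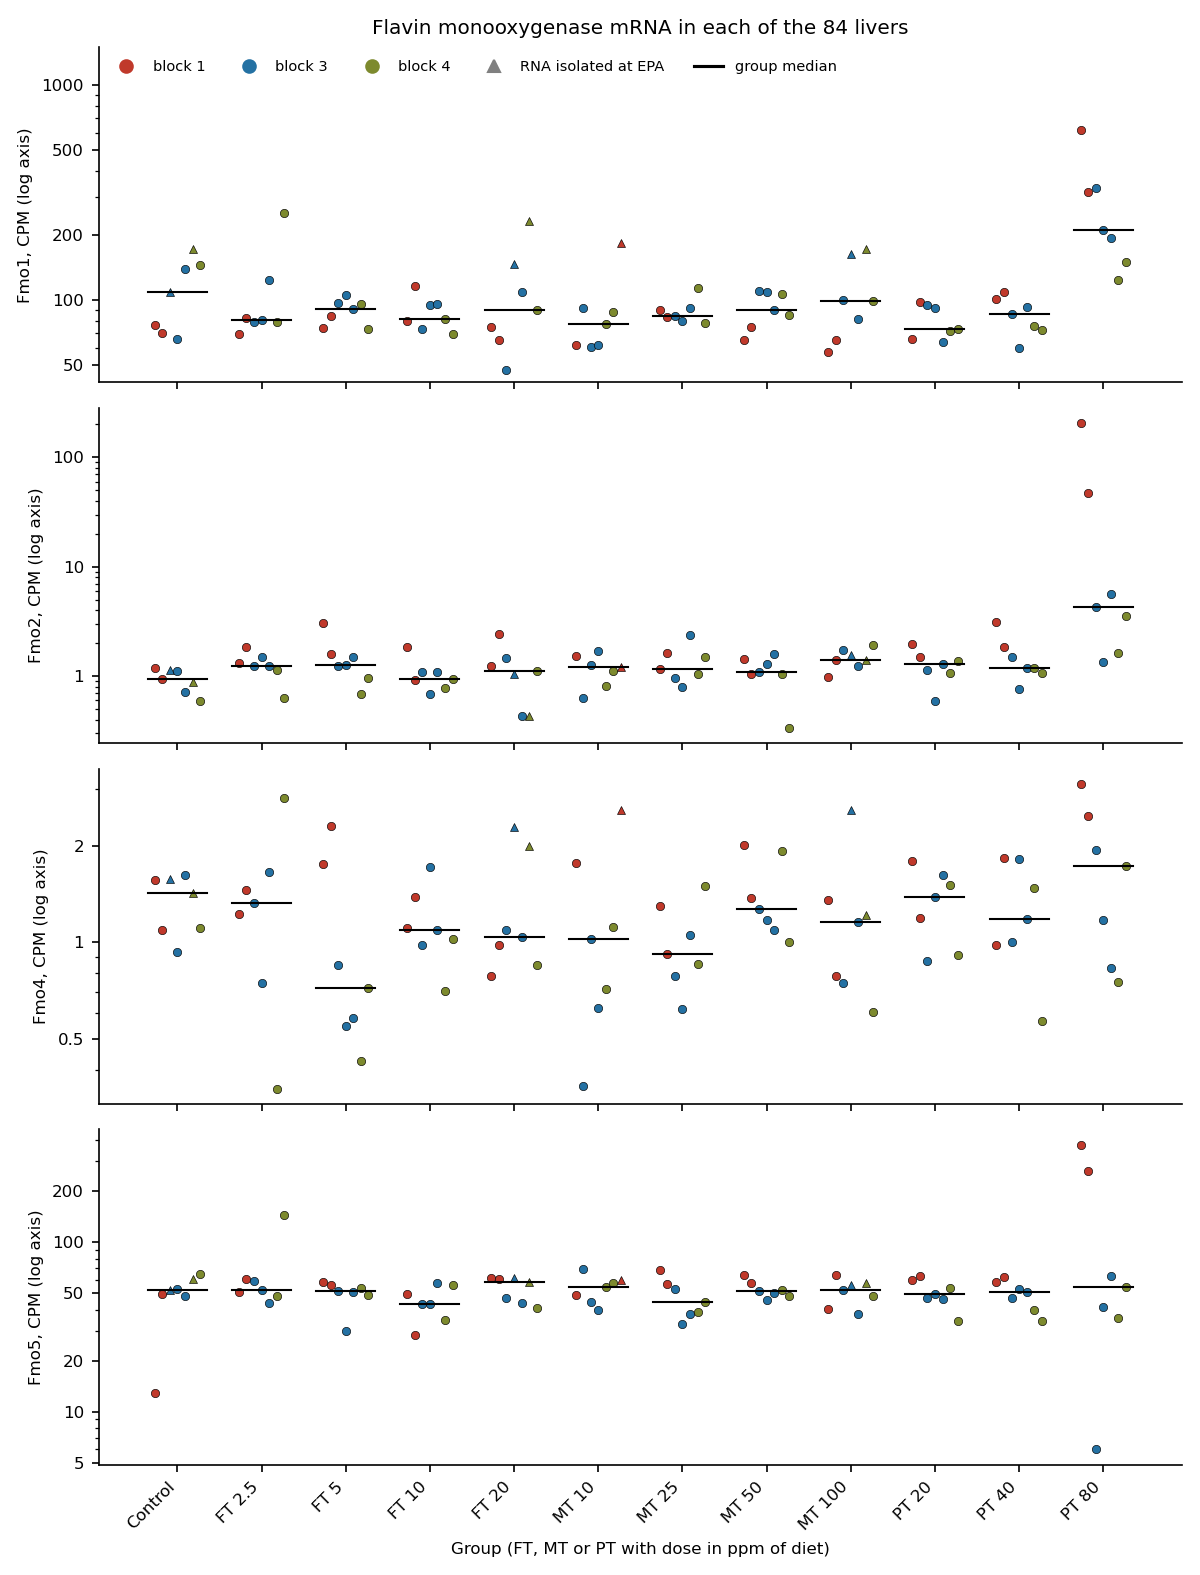
CPM of Fmo1, Fmo2, Fmo4 and Fmo5 (log axis) in each mouse of the 12 groups; colour gives the block, triangles mark RNA isolated at EPA and black lines are group medians. The PT 80 ppm mice reach 614 CPM for Fmo1, 206 CPM for Fmo2 and 376 CPM for Fmo5, above every other mouse of the study.

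Fmo1 had between 65.9 and 173 CPM in the control mice, with a median of 109 and a mean of 112 ± 42.5 (SD, n = 7). At PT 80 ppm it had 614 and 319 CPM in mice 1 and 2 (block 1), 330, 212 and 194 CPM in mice 3, 4 and 5 (block 3) and 124 and 150 CPM in mice 6 and 7 (block 4), a mean of 278 ± 168 (SD, n = 7). Thus 5 of the 7 mice lay above all control mice, and both mice of block 4 lay within the control range. The log2 fold change was 1.504 (standard error 0.229, 95% interval 1.05 to 1.96, adjusted p = 1.02e-06 from edgeR). Fmo1 kept its call and its direction in all 27 fits tried, with a log2 fold change from 0.87 without block 1 to 1.90 without block 4. Within blocks, the difference of mean log2(CPM + 0.5) between PT 80 ppm and control was 2.59 in block 1, 1.24 in block 3 and -0.22 in block 4, each from 2 or 3 mice a side. The block 4 control mice had 173 CPM (EPA) and 146 CPM (EA), the highest Fmo1 levels of the control group. Among EA mice alone, 6 of the 7 PT 80 ppm mice were above all 5 control mice, and the difference was 1.37.

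At the lower PT doses Fmo1 did not rise. At PT 20 ppm it ranged from 63.6 to 97.6 CPM with a median of 73.2, and at PT 40 ppm from 59.8 to 109 CPM with a median of 85.7. The PT 20 ppm median was the lowest of all 12 groups and the PT 80 ppm median, 212 CPM, the highest. This order does not allow for the site of RNA isolation. All PT mice were EA mice, and the 5 EA control mice had a median of 76.2 CPM. The log2 fold changes were -0.18 (standard error 0.225) at PT 20 ppm and -0.12 (standard error 0.225) at PT 40 ppm. Over all PT doses together, Fmo1 passed the test (adjusted p = 2.82e-10 from edgeR).

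Fmo5 had 12.9 CPM in control mouse 1 (block 1) and between 47.96 and 64.9 CPM in the other 6 control mice. The PT 80 ppm mice had 376 and 262 CPM in both mice of block 1, then 5.99, 41.3 and 62.9 CPM in block 3 and 35.7 and 54.6 CPM in block 4. Mice 1 and 2 were above all other mice of the study, mouse 3 was below all of them, and the other 4 lay within the control range. The mean was 120 ± 141 (SD, n = 7) against 48.8 ± 16.9 (SD, n = 7) in control. The log2 fold change was 1.05 (standard error 0.337, 95% interval 0.38 to 1.73, adjusted p = 0.0199 from edgeR). Without both PT 80 ppm mice of block 1, a fit added after the values were seen, it was -0.29 (adjusted p = 0.580 from edgeR), and without the whole of block 1 it was -0.49 (adjusted p = 0.348 from edgeR). Within blocks, the difference of mean log2(CPM + 0.5) was 3.5996 in block 1, -1.0007 in block 3 and -0.50 in block 4. The call was lost without PT 80 ppm mouse 1 (adjusted p = 0.254 from edgeR), mouse 2 (0.107) or control mouse 1 (0.0775).

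Of the 3 members tested at PT 80 ppm, 2 passed, both higher, where 18.6% of the 10415 genes tested passed, 9.75% higher and 8.89% lower, and 3.30% passed with a change of at least 2-fold, as both of these members did. Without both block 1 mice, 1 of the 3 passed. The shares of all genes given here belong to the fit with all mice, and that of the smaller fit is not given. At PT 20 and 40 ppm Fmo5 had medians of 49.5 and 50.8 CPM, close to the control median of 52.5, and log2 fold changes of 0.09 and 0.04. Over all PT doses together Fmo5 passed (adjusted p = 0.0188 from edgeR), but not without both block 1 mice (adjusted p = 0.686 from edgeR).

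Fmo2, the lung form, was measured with few counts in most livers. Control mice had 0.597 to 1.17 CPM, which were 7 to 15 counts. With PT at 80 ppm it had 206 and 47.6 CPM in the block 1 mice, 4.31, 1.34 and 5.64 CPM in block 3 and 1.62 and 3.55 CPM in block 4. All 7 mice were above all control mice, the only group of any member without overlap with control. The log2 fold change was 4.56, and its size depended on block 1. Without both block 1 mice it was 1.82, and without block 1 altogether 1.73. Within blocks, the difference of mean log2(CPM + 0.5) was 6.01, 1.36 and 1.25 in blocks 1, 3 and 4, above 0 in each. At PT 20 ppm Fmo2 ranged from 0.594 to 1.97 CPM and at PT 40 ppm from 0.758 to 3.10 CPM, with medians of 1.28 and 1.19. At PT 40 ppm 5 of the 7 mice were above all control mice, but the log2 fold change of 0.63 had a standard error of 0.614 and did not pass the test (adjusted p = 0.784 from edgeR). FT 2.5 ppm and FT 5 ppm also had 5 such mice each, and MT 100 ppm had 6. The remaining groups had from 1 (FT 10 ppm) to 4 (MT 10 and PT 20 ppm), so this was not particular to the higher doses. Across the 10 groups other than PT 80 ppm, the Fmo2 log2 fold changes lay between 0.16 and 0.71, all above 0, with standard errors of 0.600 to 0.650. These errors come from 1 spread over all mice, which includes the wide spread at PT 80 ppm.

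Fmo4 had 0.933 to 1.63 CPM in control mice. In the PT 80 ppm mice it had 3.13 and 2.48 CPM in block 1, 1.94, 1.18 and 0.831 CPM in block 3 and 0.755 and 1.73 CPM in block 4. In 4 of the 7 mice it was above all control mice and in 2 below all of them. The log2 fold change was 0.54 (standard error 0.283, 95% interval -0.03 to 1.10, adjusted p = 0.188 from edgeR), and it passed in none of the 27 fits.

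**Figure D2:**
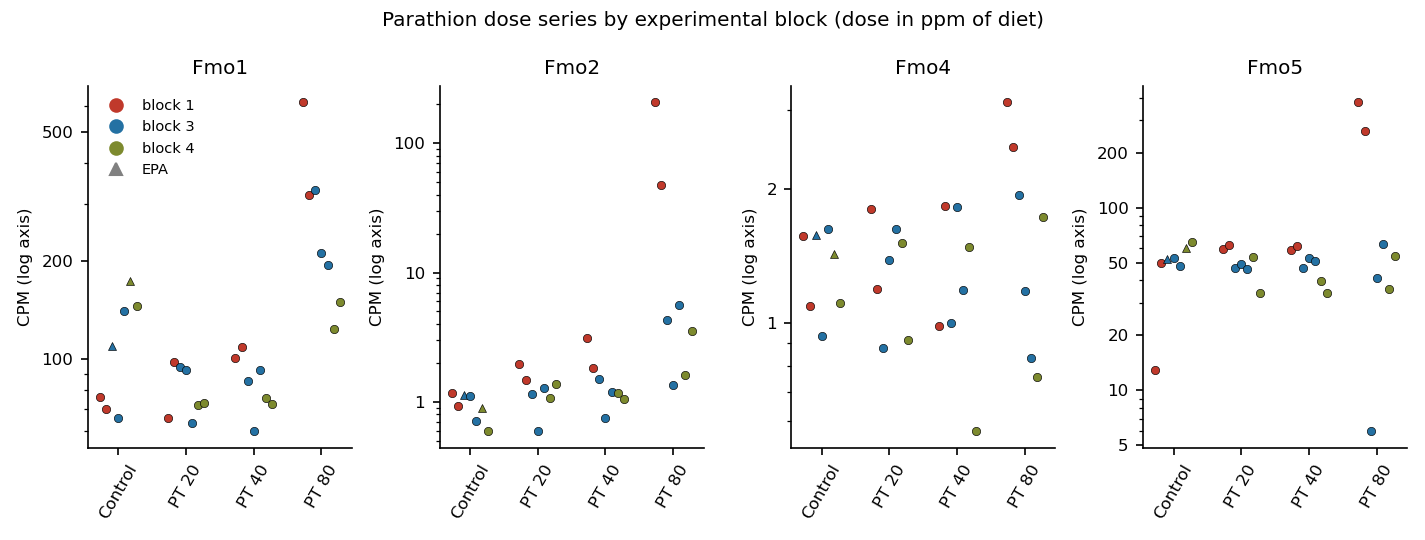
CPM (log axis) of the 4 members in control mice and at PT 20, 40 and 80 ppm; each point is 1 mouse, coloured by block, and triangles mark RNA isolated at EPA. The block 1 mice at PT 80 ppm stand above the others for Fmo2 (206 and 47.6 CPM) and Fmo5 (376 and 262 CPM).

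Mice 1 and 2 of PT 80 ppm, those with the highest Fmo2 and Fmo5, also had the lowest summed Kupffer cell, cholangiocyte and leukocyte markers of their group. Kupffer cell markers summed to 10.2 and 44.6 CPM in mice 1 and 2, against 58.8 to 87.5 CPM in the other 5 mice. Cholangiocyte markers, which were mostly Spp1, summed to 12.8 and 30.5 CPM against 40.8 to 61.3 CPM, and leukocyte markers to 9.29 and 13.6 CPM against 17.2 to 36.4 CPM. Other cell types did not share this. Endothelial markers summed to 124 and 120 CPM in mice 1 and 2, within the range of their group. Stellate cell markers summed to 133 and 87.8 CPM, the highest and the lowest of the group. Periportal hepatocyte markers summed to 7032 and 5232 CPM, the highest of the group. Mouse 1 had the highest adipocyte markers, 32.9 CPM against 10.6 to 16.6 CPM in the other 6 mice, of which 25.5 CPM was Fabp4. The part of these markers in the Fmo values was not tested. The total counts of mice 1 and 2, 10877259 and 12476604, lay within the range of the other mice, and these mice had 14276 and 14099 genes with a count, against 13648 to 16212 in mice outside the group. Hepatocyte markers summed to 37443 and 31871 CPM in these mice, within the range of their group.

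With FT, the OPP whose thioether FMOs can oxidise, no member passed the test at any dose. Fmo1 had medians of 81.1, 91.2, 82.02 and 89.8 CPM at FT 2.5, 5, 10 and 20 ppm, with mice between 47.1 and 254 CPM. Of these groups only FT 20 ppm held EPA mice, and its EA mice had a median of 74.8 CPM. Fmo5 had medians of 52.04, 51.1, 43.3 and 57.8 CPM, between 28.5 and 145 CPM. Both ranges overlapped control at every FT dose. Fmo2 had medians of 1.24, 1.26, 0.933 and 1.10 CPM and Fmo4 of 1.33, 0.720, 1.10 and 1.04 CPM. At FT 20 ppm the log2 fold changes were -0.19 (95% interval -0.63 to 0.26) for Fmo1, 0.23 (-1.01 to 1.46) for Fmo2, -0.14 (-0.71 to 0.42) for Fmo4 and 0.04 (-0.59 to 0.68) for Fmo5. None of the 4 passed, and 0 of the 10415 genes (0%) passed at this dose by edgeR. Over all FT doses together the adjusted p from edgeR was between 0.742 and 0.941 for the 4 members, with 0.0768% of all genes passing.

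MT gave a like picture. Fmo1 had medians of 77.5, 84.4, 90.4 and 98.6 CPM at MT 10, 25, 50 and 100 ppm, with mice between 57.1 and 185 CPM. The groups at MT 10 and 100 ppm held EPA mice, which had higher Fmo1, as described below. Among EA mice the medians of these groups were 69.8 and 81.8 CPM, so Fmo1 did not rise at each step of dose. Fmo5 had medians of 54.4, 44.3, 51.2 and 51.996 CPM, between 32.9 and 69.7 CPM. For Fmo2 the medians were 1.21, 1.16, 1.09 and 1.40 CPM, and for Fmo4 they were 1.03, 0.921, 1.27 and 1.16 CPM. At MT 100 ppm Fmo2 lay between 0.983 and 1.91 CPM and was above all control mice in 6 of 7 mice, yet its log2 fold change of 0.71 (95% interval -0.48 to 1.91) did not pass the test (adjusted p = 0.626 from edgeR). At this dose the log2 fold changes were -0.16 for Fmo1 (95% interval -0.60 to 0.28), -0.19 for Fmo4 (-0.76 to 0.39) and 0.02 for Fmo5 (-0.62 to 0.66). None of the 4 passed, where 0.0768% of all genes did, and over all MT doses together the adjusted p from edgeR was between 0.805 and 0.996, with 0.0864% of all genes passing.

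In the 10 groups other than PT 80 ppm, the 40 log2 fold changes of the members lay between -0.28 and 0.71, 24 of them above 0. None had an unadjusted p under 0.05, and the adjusted p from edgeR was at least 0.626. In these groups the share of all genes that passed was 1.57% at FT 10 ppm, 0.00960% at FT 2.5 ppm, MT 50 ppm and PT 20 ppm, and 0% at FT 5 ppm, MT 10 and 25 ppm and PT 40 ppm. The groups share the same 7 control mice.

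**Figure D3:**
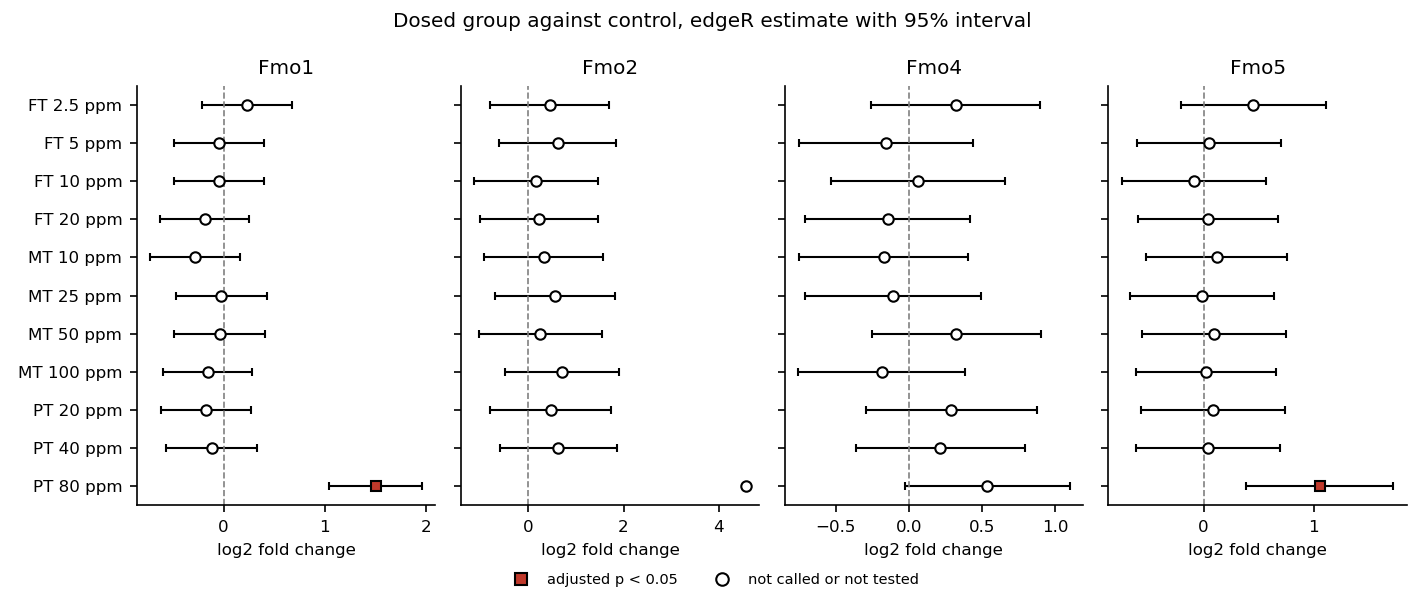
log2 fold change against control with its 95% interval from edgeR for the 4 members in the 11 dosed groups; filled squares have an adjusted p under 0.05, and Fmo2 at PT 80 ppm is drawn with no interval or test. Fmo1 (1.504) and Fmo5 (1.05) at PT 80 ppm are the filled points, and the intervals in the other groups all cross 0.

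FT and MT were given at a shared dose of 10 ppm, and FT and PT at 20 ppm, which allowed 8 comparisons of a member between compounds. FT is a dimethyl phosphorothioate with an aromatic thioether, MT a dimethyl phosphorodithioate with a heterocycle, and PT a diethyl phosphorothioate with a nitrophenyl group. At 10 ppm, FT minus MT was 0.24 (95% interval -0.21 to 0.68) for Fmo1, -0.16 (-1.39 to 1.07) for Fmo2, 0.23 (-0.36 to 0.83) for Fmo4 and -0.20 (-0.84 to 0.44) for Fmo5 on the log2 scale. At 20 ppm, FT minus PT was -0.01 (-0.47 to 0.44) for Fmo1, -0.24 (-1.45 to 0.96) for Fmo2, -0.44 (-1.03 to 0.15) for Fmo4 and -0.04 (-0.70 to 0.61) for Fmo5. None of the 8 differences passed (adjusted p from edgeR of at least 0.810), and 0% of all genes passed in either pair. These intervals reach past a 2-fold lower level with FT for Fmo2 in both pairs and for Fmo4 at 20 ppm, and past a 2-fold higher level with FT for Fmo2 at 10 ppm, so the compounds were not shown to act alike. For Fmo2 the wide spread at PT 80 ppm, a group in neither pair, enters the width of these intervals. No other OPP had a dose matched to PT 80 ppm.

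**Figure D4:**
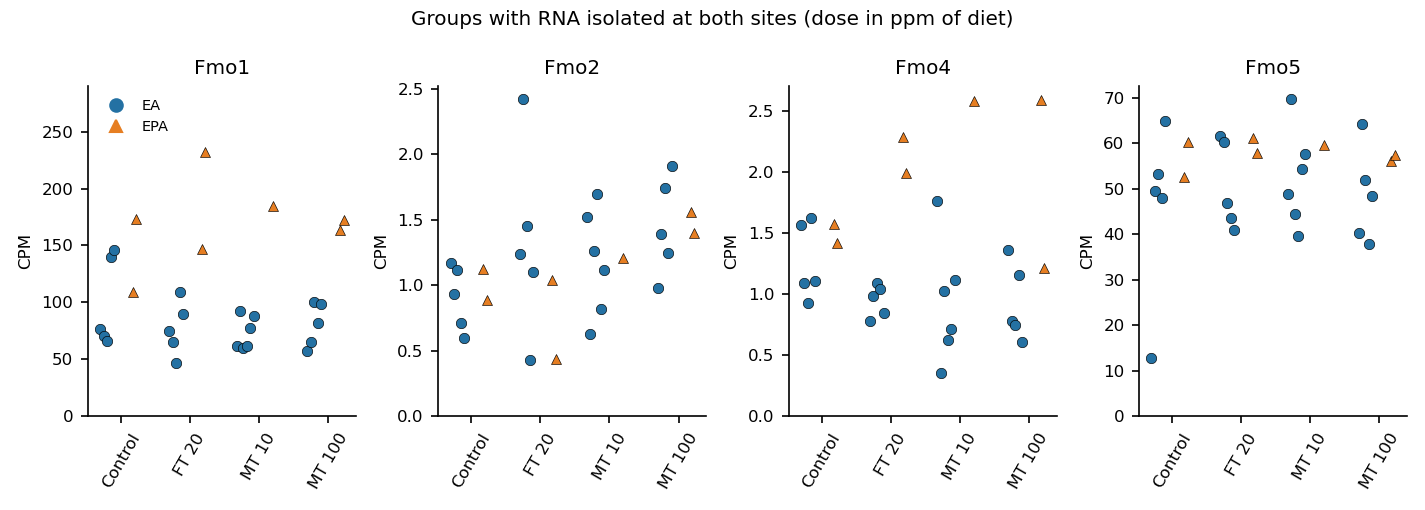
CPM of the 4 members in the groups that held RNA isolated at both sites; each point is 1 mouse, circles are EA and triangles EPA. For Fmo1 at FT 20 ppm and MT 100 ppm both EPA mice are above all EA mice of their group.

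The site of RNA isolation moved with Fmo1 and Fmo4. In the fit over all mice, EPA libraries were higher than EA libraries by 0.88 on the log2 scale for Fmo1 (standard error 0.175, adjusted p = 3.62e-05 from edgeR) and by 0.90 for Fmo4 (standard error 0.222, adjusted p = 8.28e-04 from edgeR). Thus 2 of 4 members were higher, where 38.7% of all genes passed and 19.6% were higher. Fmo2 and Fmo5 did not pass, with 0.01 and 0.16. At FT 20 ppm Fmo1 had 147 and 232 CPM in the EPA mice and 47.1 to 109 CPM in the EA mice, and at MT 100 ppm 164 and 172 CPM against 57.1 to 100.0 CPM. The EPA mouse at MT 10 ppm had 185 CPM, and the 6 EA mice 60.2 to 92.1 CPM. In control, the EPA mice had 109 and 173 CPM and the EA mice 65.9 to 146 CPM, so the sites overlapped. No PT mouse was isolated at EPA, and the PT 80 ppm calls of Fmo1 and Fmo5 were also made among EA mice alone. Site and mouse cannot be told apart within a group, since each mouse was isolated once. Block passed the test for Fmo4 (adjusted p = 0.0151 from edgeR) and not for Fmo1 (0.738) or Fmo5 (0.112), where 39.9% of all genes passed. Fmo2 was not tested for block, since its PT 80 ppm values enter that fit. In mice outside PT 80 ppm, the Fmo2 median was 1.46 CPM in block 1, 1.24 in block 3 and 1.04 in block 4.

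A second deposited set of log2 values, already corrected by the authors for block and site, gave other results for the members. In that set, 3 of the 7 control mice hold equal values for every gene. So do 3 mice of the FT 20 ppm group, 3 of the MT 100 ppm group and 2 of the MT 10 ppm group, and the counts of these mice are not equal. The F test below counts them as separate mice and makes no allowance for the correction already applied. Its p-values can therefore be too small. By a one-way F test of each OPP's doses with control (adjusted p under 0.05, at least 2-fold at 1 dose), Fmo5 passed with FT, as the largest change there was -1.06 at 10 ppm. Fmo2 passed with MT, the change being 1.08 at 100 ppm. With PT, Fmo1 and Fmo5 passed, and their largest changes were at 40 ppm (-1.10 and -1.61), both lower. Fmo2 had its largest change at 80 ppm (2.22). The test takes all doses of an OPP together with control, so no single dose was tested. In all, 9.93%, 7.90% and 9.39% of the genes in that set passed for FT, MT and PT. At PT 80 ppm the adjusted values put Fmo5 1.06 below control on the log2 scale, the opposite side to the 1.05 of edgeR on the counts, and Fmo1 0.42 above control. The counts of Fmo1 and Fmo5 at PT 40 ppm, given above, lay within the control range for all mice but 1 of Fmo1.

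Other genes of the pathway were described by lists at PT 80 ppm, against a median log2 fold change of 0.01 over all 10415 genes, of which 18.6% passed, 9.75% higher and 8.89% lower. All lists here and below were chosen with earlier results of these data known. Their counts are therefore descriptions, and an excess over the share of all genes is not a test. FMOs need FAD and NADPH, and P450 enzymes draw NADPH electrons through shared partners. Of 12 tested genes for FAD and NADPH supply, 2 were higher and 3 lower, with a median log2 fold change of -0.11. Por, the reductase that passes electrons from NADPH to P450 enzymes, rose by 2.33 on the log2 scale, with a standard error of 0.324 (adjusted p = 1.16e-07 from edgeR). It had 956 and 802 CPM in the block 1 mice and 51.4 to 174 CPM in the other 5, against 21.9 to 78.4 CPM in control. Cyb5a, cytochrome b5, rose evenly, by 0.69 (adjusted p = 1.83e-09 from edgeR), with all 7 mice at 1356 to 2149 CPM above the control range of 784 to 1168 CPM. Cyb5r3, its reductase, fell by 0.63 on the log2 scale (adjusted p = 3.48e-05 from edgeR).

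Of 11 tested genes for sulfoxide reduction and sulfur oxidation, 1 was higher and 1 lower, with a median of -0.08, and these 2 of 11 are a share near the 18.6% of all genes. Cdo1, cysteine dioxygenase, rose by 0.77 on the log2 scale (adjusted p = 3.96e-04 from edgeR), and Txn1, thioredoxin, fell by 0.56 (adjusted p = 7.13e-04 from edgeR). Of 11 tested P450 enzymes linked with organophosphate oxidation, 9 were higher and 0 lower, with a median of 1.09, in a list chosen with earlier results known. Cyp2c54 rose by 2.03 (adjusted p = 1.87e-10 from edgeR), Cyp2c37 by 2.32 (adjusted p = 8.61e-10) and Cyp2e1 by 0.98 (adjusted p = 1.16e-07), and each was above all control mice in 7 of 7 mice. Cyp2c genes have close copies between which reads can be split, so their separate values are uncertain. Cyp2e1 is also one of the pericentral markers above.

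Among 16 tested nuclear receptors and other regulators of drug metabolism, 3 were higher and 0 lower, with a median of 0.11, and as a share these 3 of 16 are again near the 18.6% of all genes that passed. Nr1i3, which encodes the constitutive androstane receptor, rose by 1.78 (adjusted p = 5.14e-08 from edgeR) and was above control in all 7 mice, from 503 to 1142 CPM against 128 to 328 CPM. Hnf4a, a master regulator of hepatocyte genes, rose by 0.53 (adjusted p = 5.59e-04), and Nr1i2, the pregnane X receptor, by 0.52 (adjusted p = 6.93e-04). Of 12 tested genes that rise in fasting or are higher in female liver, 7 were higher and 0 lower, with a median of 0.88. The paper reports lower body weight at this dose, and its part here was not tested. Cyp4a10, a fatty acid hydroxylase, rose by 7.89 on the log2 scale (adjusted p = 1.29e-12 from edgeR), from at most 3.04 CPM in control to 57.4 to 911 CPM. Cyp39a1, an oxysterol hydroxylase, rose by 2.7003 (adjusted p = 1.45e-08). Sult1e1, estrogen sulfotransferase, had 3441 CPM in mouse 1 and 39.6 CPM in mouse 2, against 0.216 to 8.22 CPM in the other 5 mice and 1.02 to 6.68 CPM in control. Its log2 fold change of 6.95 (adjusted p = 3.62e-07 from edgeR) became 0.11 (adjusted p = 0.933) without both block 1 mice. Cyp4a10 still had 7.54 without them and Por 1.63, while Cdo1 and Hnf4a no longer passed (adjusted p = 0.0700 and 0.128 from edgeR). Without these mice the lists had 2 higher and 2 lower genes for FAD and NADPH supply, 1 and 1 for sulfur chemistry, 9 and 0 for P450 enzymes, 3 and 0 for regulators, and 5 and 0 for fasting and female genes. The 18.6% belongs to the fit with all mice. The share of all genes in this smaller fit is not given, so these counts have no background.

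Outside PT 80 ppm few genes of any kind passed. At MT 100 ppm 4 of the 11 P450 genes were higher, where 8 of all 10415 genes passed (0.0768%). At MT 50 ppm 1 P450 gene was higher, where 1 of all genes passed (0.00960%). At FT 10 ppm 2 P450 genes, 2 fasting or female genes and 1 FAD or NADPH gene were higher. There 164 of all genes passed (1.57%). At FT 2.5 ppm 1 FAD or NADPH gene was higher, where 1 of all genes passed (0.00960%). In the other dosed groups no list gene passed by edgeR.

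The genes whose pattern over the 84 mice was most like that of each member were found by Pearson's r of log2(CPM + 0.5), given as a description, since all mice share the groups, blocks and sites. For Fmo1 they were Ahcyl (r = 0.845), Mia3 (0.830), which helps load secretory cargo, and Azgp1 (0.822), zinc-alpha-2-glycoprotein. Without the 7 PT 80 ppm mice these were 0.755, 0.780 and 0.846. For Fmo5 they were Aebp2 (0.828), Gpt2 (0.824), a mitochondrial alanine aminotransferase, and Ebp (0.786), a sterol isomerase, and 0.716, 0.689 and 0.646 without PT 80 ppm. For Fmo2 they were Serinc3 (0.852), Sult1d1 (0.851), a sulfotransferase, and Nucks1 (0.845). These rested on PT 80 ppm mice 1 and 2, without which they were 0.511, 0.446 and 0.502, and without all 7 PT 80 ppm mice 0.389, 0.123 and 0.336. For Fmo4, with few counts, they were Ctsa (0.653), Abcg5 (0.653) and Prpsap1 (0.590), and without PT 80 ppm 0.643, 0.608 and 0.638.

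The genes above were picked for the highest r with each member, so no other gene, members included, could have a higher one. The values between members therefore cannot show whether the members moved together less than other genes did. Fmo2 and Fmo4 also had few counts, with medians of 14 and 13. The part of counting error in their r was not tested. The highest r between 2 members was 0.533, for Fmo1 and Fmo2, and it was -0.279 without the PT 80 ppm mice. For Fmo2 and Fmo5 it was 0.4996 with all mice and 0.00927 without PT 80 ppm, and for Fmo1 and Fmo4 0.446 and 0.346.

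**Figure D5:**
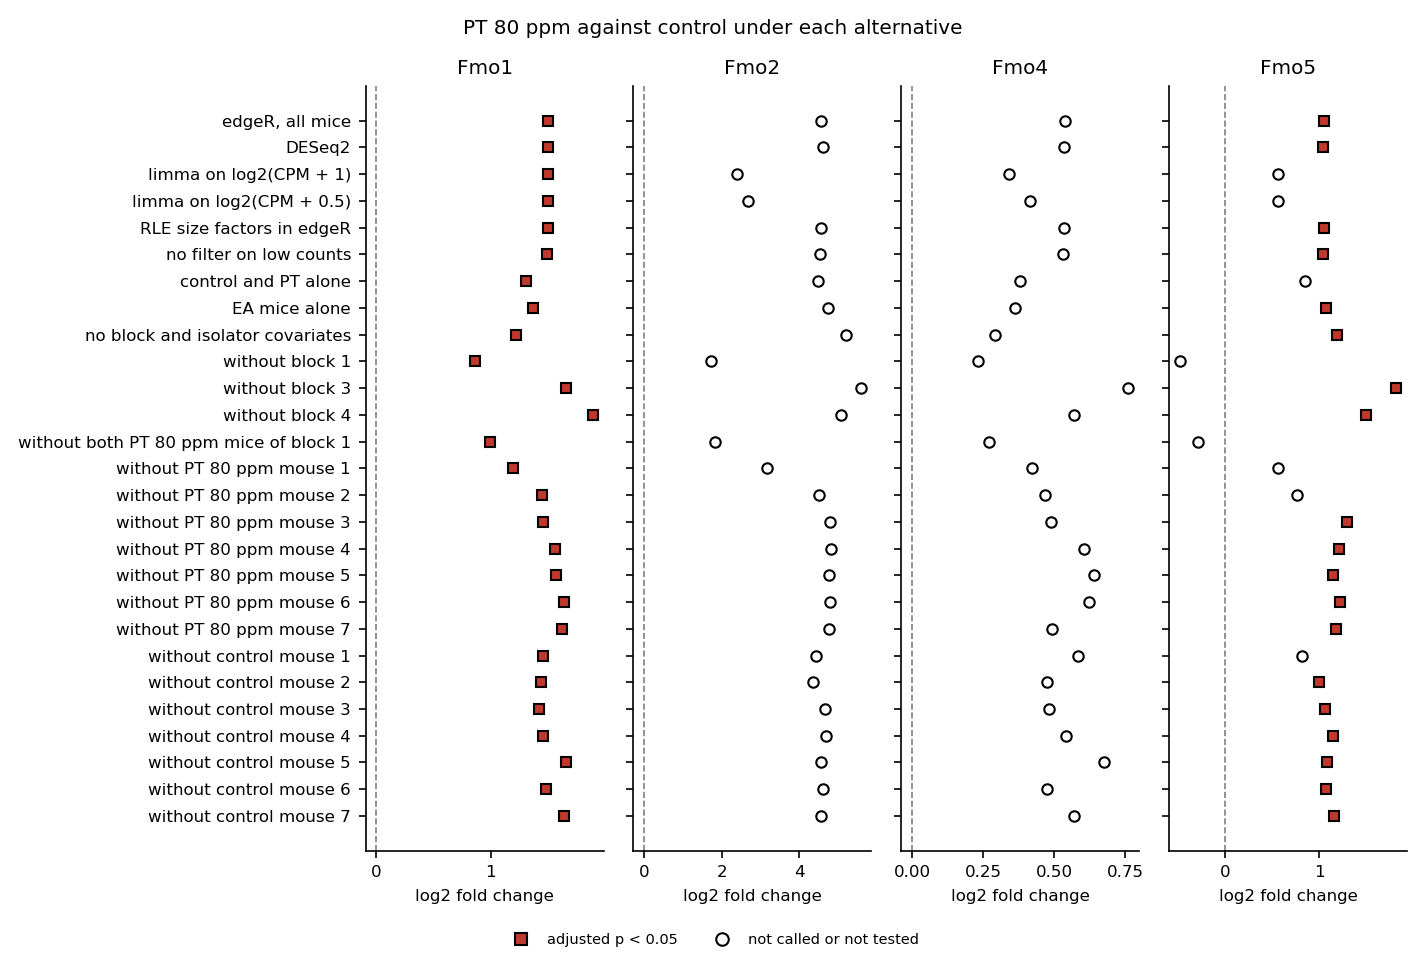
log2 fold change at PT 80 ppm for the 4 members (horizontal axis) under each alternative (rows); filled squares have an adjusted p under 0.05, and Fmo2 is drawn with no test. Fmo1 is filled in all 27 rows, Fmo4 in none, and Fmo5 lies below 0 in the rows without block 1 (-0.49) and without both block 1 mice (-0.29).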

How the data were processed

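Liver RNA of 84 mice was measured by TempO-Seq. After trimming, the authors aligned reads to mm39 (STAR) and estimated counts per gene of Ensembl release 106 in Partek, and the estimated counts were deposited without normalization. The authors also deposited log2 values, scaled to CPM and adjusted for block and RNA isolator, which are listed here with the unit score because their columns are named by animal number.

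Counts were rounded. The 10415 genes with a median count above 8 were tested with edgeR 4.0.16 (quasi-likelihood test, TMM) in 1 model over 12 groups with block and isolator as covariates. Values were called at a Benjamini-Hochberg adjusted p under 0.05 over all genes tested. DESeq2 1.42.0 and limma 3.58.1 (R 4.3.3) were alternatives, as were other scaling, filters, covariates and subsets of mice. Values and plots were made with pandas 2.3.3, scipy 1.17.1, numpy 2.4.6 and matplotlib 3.10.9 in Python 3.11.15. The fits were tested on simulated data. P-values measure the spread between mice, of which each gave 1 library. The paper states that mice shared cages and that whole cages were assigned to the diets. Cage was not in the model, so mice of 1 cage were treated as independent.

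The members and the gene lists were chosen with earlier results of these data known. The genes named are the 4 members, per member the 3 genes with the highest r, and per list up to 3 genes with the smallest adjusted p under 0.05 at PT 80 ppm. Another item of this rule is not reported here. Gene names and coordinates come from GENCODE M39 (GRCm39), which named 17660 of 17695 identifiers. Promoter sequences come from RefSeq (GRCm38.p6). The smallest number of counts taken as measured, 3, equals 0.196 to 0.432 CPM and covers counting error only.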

Additional observations from a re-analysis of the deposited data

Results flagged for a closer look

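In 47 combinations of a member and a group, which leave out Fmo2 at PT 80 ppm, the mouse at either end was compared with its nearest neighbour as a share of the group's range, and 10 passed Dixon's 95% critical value for 7 mice. Chance flags about 1 in 20 groups, which would be 2.35 here. The explanations of these values were not tested.

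At PT 80 ppm, mouse 1 (block 1) was flagged for Fmo1, with 614 CPM and the nearest mouse at 330 CPM. Mouse 7 at FT 2.5 ppm (block 4) was flagged for Fmo1, with 254 CPM against 124 CPM, and for Fmo5, with 145 CPM against 60.6 CPM. Mouse 1 of FT 5 ppm and mouse 1 of FT 10 ppm, both of block 1, were flagged for Fmo2, with 3.04 and 1.85 CPM against 1.58 and 1.10 CPM.

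The EPA mouse of MT 10 ppm was flagged for Fmo1, with 185 CPM against 92.1 CPM, and an EPA mouse of MT 100 ppm (block 3) for Fmo4, with 2.60 CPM against 1.36 CPM. At MT 25 ppm, mouse 6 was flagged for Fmo1 with 114 CPM against 91.8 CPM. At the low end, control mouse 1 (block 1) was flagged for Fmo5, with 12.9 CPM against 47.96 CPM, and mouse 4 at FT 5 ppm for Fmo5, with 29.9 CPM against 49.1 CPM.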

How the results depend on the processing

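Over 51 results, 605 values were recomputed under alternatives. Of these, 558 kept their direction and side of the limit, stayed within the spread between mice or, for counts of called genes, stayed equal or near. They include 128 of 136 counts of members called, most of which were 0 in groups where no member passed. A fit that gave no adjusted p was scored as unchanged. No paired analysis was possible because each library came from a different mouse. The fits with both PT 80 ppm mice of block 1 left out, and all alternatives for the isolator, were chosen after seeing the data. The cause was not tested where a result changed. At PT 80 ppm, Fmo5 did not pass with limma on log2(CPM + 1) (0.57), limma on log2(CPM + 0.5) (0.56) or control and PT mice alone (0.85), and turned to -0.49 without block 1 and -0.29 without both block 1 mice. Leaving out 1 PT 80 ppm or control mouse gave Fmo5 0.56 to 1.30. Fmo2 moved from 4.56 to 1.73 without block 1 and 1.82 without both block 1 mice. The number of the 3 tested members called, 2, became 1 in these fits of Fmo5 (1 to 2 with 1 mouse left out). Over all PT doses, the adjusted p of Fmo5 became 0.591 and 0.612 (limma, pseudocounts 1 and 0.5), 0.517 (control and PT alone), 0.600 (without block 1) and 0.686 (without both block 1 mice). Without block 1, uncalled values changed sign at FT 20 ppm for Fmo2 (-0.0643), Fmo4 (0.0201) and Fmo5 (-0.22) and at MT 100 ppm for Fmo5 (-0.17). In FT minus MT at 10 ppm, Fmo4 became -0.18 without block 3. In FT minus PT at 20 ppm, Fmo1 became 0.0207 with those groups and control alone, 0.35 without covariates, 0.18 without block 1 and 0.0409 without block 3, and Fmo5 0.00567 without covariates. EPA minus EA for Fmo2 became -0.0900 (DESeq2), -0.0143 (no filter), -0.17 (without block 1), -0.0678 (without block 3) and -0.16 (without both block 1 mice), and Fmo4 did not pass without block 3 (0.78). The F test on the deposited adjusted values gave adjusted p of 0.00782 (Fmo1) and 6.56e-04 (Fmo5) for FT, and 1.24e-04 (Fmo1), 8.29e-05 (Fmo2), 0.0207 (Fmo4) and 6.25e-05 (Fmo5) for MT, all past the limit that the counts did not pass. That test counts mice with equal values as separate mice, so these p-values can be too small. The list of regulators had 5 called genes with either limma fit against 3. DESeq2 gave no adjusted p for Fmo2 and Fmo4 at MT 100 ppm.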
